A study of Xenopus laevis with 28 samples.

Results

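The carbonic anhydrase genes of the adult African clawed frog, Xenopus laevis, were followed across 14 tissues of the inbred J strain. The rows were chosen by gene symbol: a row of the deposited table belonged to the family if its symbol, without the copy ending L or S and any tandem number, was ca1, ca2, ca3, ca4, ca9, ca12, ca13, ca14 or car1_predicted. These symbols were selected on the measured levels of the family in the same tissues, so the levels below are a description and carry no test. The rule found 10 of 45831 rows, namely both copies of ca2, ca4, ca13 and car1_predicted and the L copy of ca3 and of ca12. No row carried ca1, ca9 or ca14. Each tissue had 2 libraries of polyadenylated RNA, 28 in all, 1 from the Taira and 1 from the Ueno dataset. One female donor per dataset gave brain, eye, heart, intestine, kidney, liver, lung, muscle, ovary, pancreas, skin, spleen and stomach, and the testes came from 2 males, siblings of those females. The animals were untreated as far as the labels say, their age was not given, and sex cannot be told apart from organ for testis.

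Carbonic anhydrases are zinc enzymes that turn carbon dioxide and water into bicarbonate and a proton, and back. In mammals CA2, CA3 and CA13 act in the cytosol, CA4 is held on the outer face of the plasma membrane by a lipid anchor, and CA12 crosses the membrane with its active site outside the cell. Acid secretion in the stomach, bicarbonate handling in the kidney, fluid production in the eye and carbon dioxide transport in blood are known to draw on the family. X. laevis is an allotetraploid, so many genes exist as an L and an S copy, called homeologs. Values are in TPM, the abundance of transcripts per length, scaled to 1 total in every library, so levels can be compared between genes but a gene can fall because others rise.

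The libraries summed to 999999 to 1000001 TPM, which says nothing of their read depth, and held 24533 to 34388 models above 0. Of 62 rows of defining tissue markers, 56 were higher in both libraries of their own tissue than in any other library. The exceptions were mep1a.S in intestine, fgb.S and ttr.S in liver, anxa8.L in skin, which was at 0 there, and both ddx4 rows in testis. The marker lists were chosen with earlier results of these data known, so the count of 56 is a description. Kidney held oocyte transcripts and eye held muscle transcripts, whose values are given beside the results they touch. In whole tissue, fewer cells of a type and less RNA per cell cannot be told apart. Each mean ± SD below covers 2 libraries.

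The 10 rows together differed widely between organs. Their summed level was 4545 (Taira) and 906 TPM (Ueno) in testis, 1907 and 420 TPM in intestine, 1587 and 278 TPM in stomach, 515 and 660 TPM in kidney, and 466 and 468 TPM in eye. Lung (263 and 105 TPM), brain (163 and 202 TPM), ovary (182 and 38.8 TPM) and muscle (128 and 77.6 TPM) came next. Liver, skin, pancreas, heart and spleen ended the order, down to 21.4 and 12.4 TPM in spleen. Testis, ovary, stomach, eye, brain, liver and pancreas each had the same leading row in both libraries, and in the other 7 tissues the leading row differed between the datasets. The row car1_predicted.S made up 99.8% of the sum in each testis library and ca12.L at least 99.0% in each ovary library. The row ca2.L led in stomach (90.0% and 75.9%), eye (85.9% and 83.9%) and brain (70.5% and 79.7%), and ca2.S led in liver (80.3% and 77.4%).

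**Figure D1:**
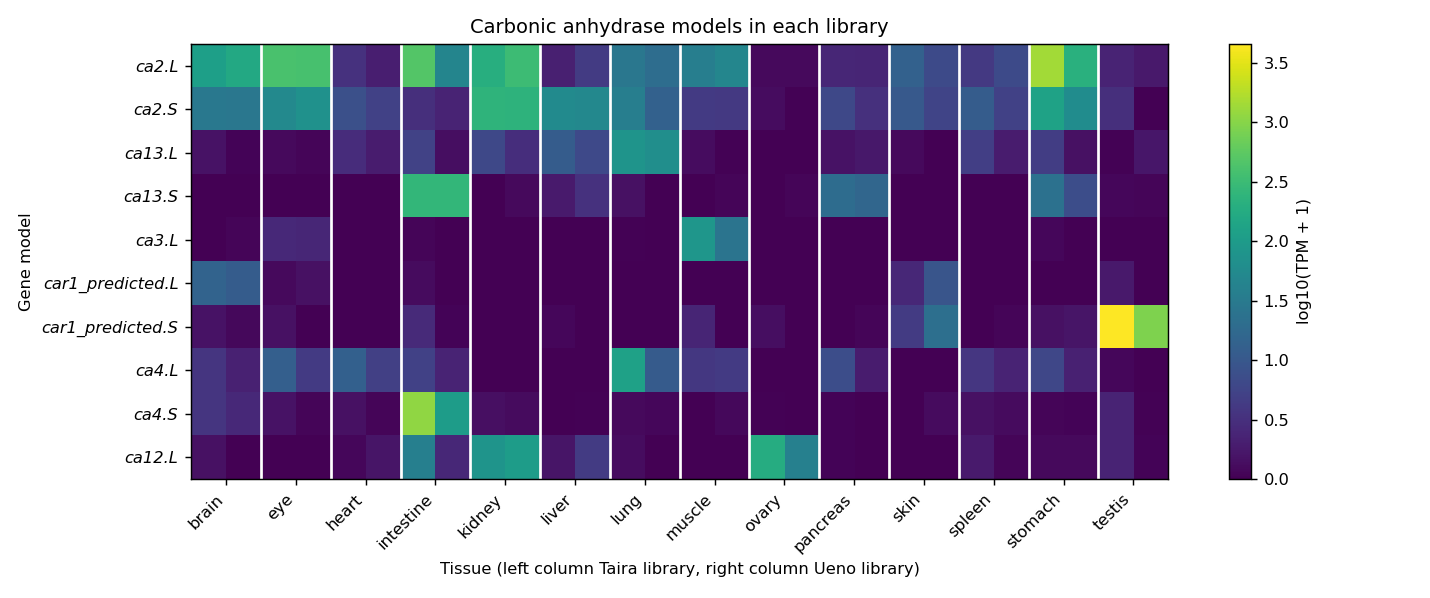
Level of each of the 10 carbonic anhydrase models (rows) in each of the 28 libraries (columns, Taira left and Ueno right within a tissue) as log10(TPM + 1). The ca2 copies are spread over many organs, while ca3.L is bright in muscle, car1_predicted.S in testis, ca4.S in intestine and ca13.L in lung.

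**Figure D2:**
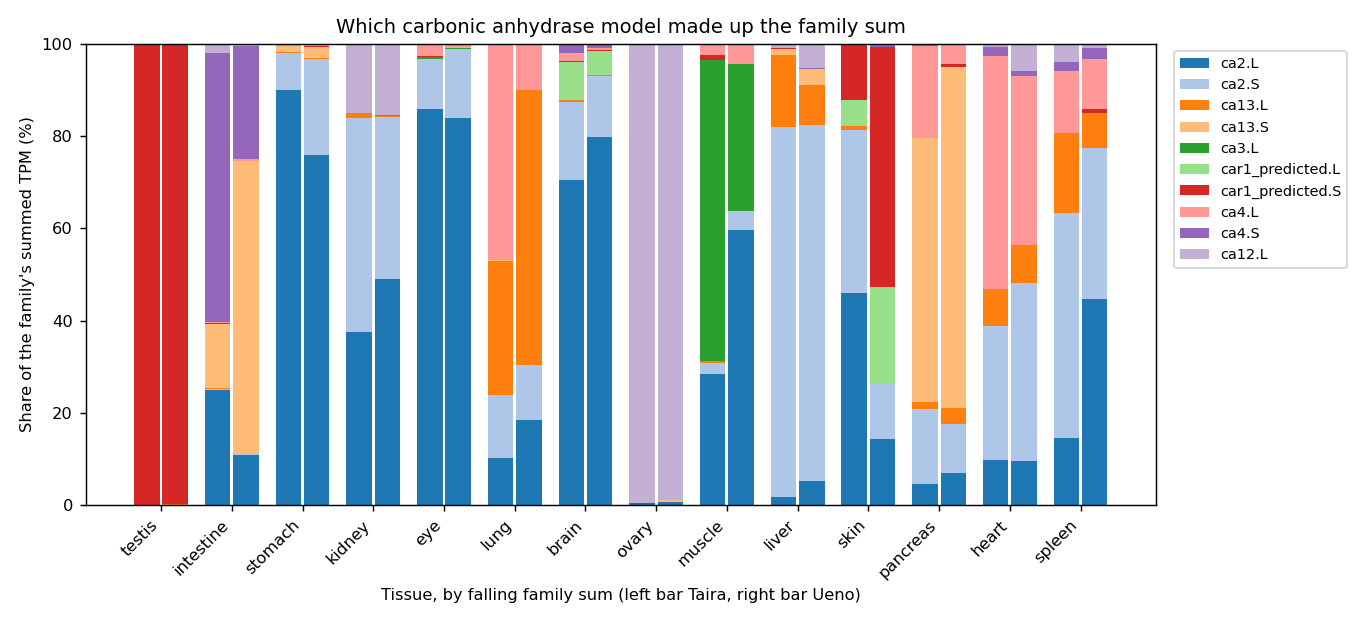
Share of the family's summed TPM (percent) taken by each of the 10 models, with tissues ordered by falling family sum and 1 bar per library. One model makes up nearly the whole sum in testis (car1_predicted.S) and ovary (ca12.L), whereas the ca2 copies together fill most of it in stomach, eye, brain, kidney and liver.

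The cytosolic enzyme gene ca2 was the most widely expressed. Its copy ca2.L (Xelaev18032156m) stood at 1429 (Taira) and 211 TPM (Ueno) in stomach, 400.4 and 392.5 TPM in eye, 477 and 45.8 TPM in intestine, and 193 and 324 TPM in kidney. In this order of means stomach overlapped with eye, eye with intestine and intestine with kidney, but both eye libraries lay above both kidney libraries. Stomach came first by its mean alone, since its Ueno library lay below those of eye and kidney. Brain (115 and 161 TPM), muscle (36.2 and 46.3 TPM) and lung (27.0 and 19.3 TPM) followed, each apart from its direct neighbours in the order. In the other 7 tissues ca2.L lay between 0.22 and 12.5 TPM, with a median of 1.46 TPM, and no library was at 0.

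The copy ca2.S (Xelaev18033849m) was highest in kidney, at 239 and 231 TPM, apart from all other tissues. Stomach (127 and 58.2 TPM), eye (50.9 and 70.0 TPM) and liver (54.6 and 49.9 TPM) came next, with eye overlapping both others and stomach above liver. Lower in the order lay brain (27.7 and 27.1 TPM) and lung (35.8 and 12.5 TPM), which overlapped. The other 8 tissues ran from 0 to 10.46 TPM. Erythrocytes, which carry carbonic anhydrase in many vertebrates, left strong marks in several organs: the summed level of 10 erythrocyte rows was 83666 and 105036 TPM in liver, 84521 and 66970 TPM in lung, 41086 and 20915 TPM in spleen and 21864 and 16782 TPM in heart, with 8 of 10 rows at 1 TPM or more in both libraries of each. In kidney, where ca2.S was highest, the erythrocyte sum was 19194 and 5500 TPM, also with 8 of 10 rows at that level. In spleen and heart ca2.S stood at no more than 10.46 TPM. In stomach, first for ca2.L by mean, the erythrocyte sum was 806 and 164 TPM. The part of blood in the ca2 levels was not tested.

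The stomach libraries also held the acid-secreting cell markers at a level seen nowhere else, with a sum over 3 rows (atp4b.L, atp4b.S and gif.L) of 11445 and 5459.8 TPM, and with at most 855 TPM in any other library, a pancreas. Among these, the proton pump subunit atp4b.S stood at 3060 (Taira) and 657 TPM (Ueno) in stomach, and the intrinsic factor gene gif.L at 6559 and 4049 TPM. The Taira library was the higher of the 2 for ca2.L and for these markers. It was also higher for the smooth muscle markers, with a sum over 7 rows of 1170.5 and 224.0 TPM in stomach. Of these, myh11.S stood at 979 and 72.0 TPM, while des.1.L (65.97 and 53.48 TPM) and des.1.S (102.3 and 92.49 TPM) were closer. The surface mucous gene gkn1 was higher in Taira too, at 9414 and 7413 TPM for gkn1.L and 5520 and 2974 TPM for gkn1.S. Whether the share of acid-secreting or smooth muscle cells moves ca2.L was not tested.

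The second cytosolic gene with 2 copies, ca13, had copies with separate organs. The copy ca13.S (Xelaev18033848m) stood at 267 and 266 TPM in intestine, the most even of its high values. Pancreas (18.3 and 15.3 TPM) and stomach (21.9 and 6.25 TPM) came next and overlapped, and the other 11 tissues lay between 0 and 2.36 TPM. The copy ca13.L (Xelaev18032153m) stood at 76.6 and 62.4 TPM in lung. Liver followed with 10.7 and 5.48 TPM, and the other libraries reached no more than 5.24 TPM. Lung and liver also had the 2 highest erythrocyte sums, at 84521 and 66970 TPM in lung and 83666 and 105036 TPM in liver. By mean ca13.L was 8.61 times lower in liver than in lung. Spleen and heart held ca13.L at 0.87 to 3.72 TPM. The part of blood in the ca13.L levels was not tested.

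The gene ca3 encodes a cytosolic enzyme of low activity that is abundant in mammalian skeletal muscle. The row ca3.L (Xelaev18032155m) stood at 83.5 (Taira) and 24.8 TPM (Ueno) in muscle and at 1.67 and 1.47 TPM in eye. In the other 12 tissues it reached no more than 0.16 TPM, and 20 of 28 libraries were at 0. The eye value was 2.0% of the muscle value in the Taira and 5.92% in the Ueno dataset. The summed level of 10 fast muscle rows in eye was 2.14% and 3.38% of that in muscle, and all 10 rows were at 1 TPM or more in both eye libraries. The part of muscle tissue in the eye value was not tested.

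The symbol car1_predicted is not described further in the table, and its relation to ca1 was not settled from the files. The row car1_predicted.S (Xelaev18033846m) stood at 4538 (Taira) and 904 TPM (Ueno) in testis, the highest value of the family. Skin was the next tissue, at 3.27 and 20.4 TPM, and no library of the other 12 tissues was above 1.69 TPM. The row car1_predicted.L (Xelaev18032152m) was at 0.8 and 0 TPM in testis. It was highest in brain, at 13.4 and 10.6 TPM, followed by skin at 1.54 and 8.31 TPM, and 20 of 28 libraries were at 0. In skin both copies were higher in the Ueno library. Epidermal markers were uneven too: the sum over 14 rows was 21367 TPM in the Taira skin and 8675 TPM in the Ueno skin. It was carried by keratin rows such as krt6.L (8362 and 2284 TPM). The rows ppl.L (157.15 and 58.45 TPM) and ppl.S (316.6 and 77.66 TPM) were also higher in Taira. The rows tp63.L (116 and 134 TPM), tp63.S (70.3 and 80.6 TPM) and anxa8.S (1419 and 1855 TPM) were higher in Ueno. The part of these markers in the car1_predicted levels was not tested.

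The membrane-anchored enzyme gene ca4 was represented by rows of unlike pattern. The row ca4.S (Xelaev18015295m) stood at 1114 (Taira) and 103 TPM (Ueno) in intestine, and no other library was above 2.72 TPM. The row ca4.L (Xelaev18012667m) stood at 123 and 10.2 TPM in lung. The Ueno lung value lay within the range of heart (12.0 and 3.91 TPM) and eye (11.8 and 3.22 TPM), so lung and heart did not differ beyond the spread, and kidney, liver, ovary and skin were at 0 in both libraries. In mammals CA4 is known from lung capillary endothelium. The summed level of 8 endothelial rows was 393 (Taira) and 37.9 TPM (Ueno) in lung, with 6 of 8 rows at 1 TPM or more in both. It was 95.9 and 24.4 TPM in heart, 81.2 and 39.35 TPM in spleen, and 76.0 and 31.5 TPM in kidney. In spleen ca4.L stood at 2.85 and 1.33 TPM. The part of endothelium in the ca4.L level was not tested.

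The transmembrane enzyme gene ca12 was represented by ca12.L (Xelaev18018004m) alone. It stood at 181 (Taira) and 38.5 TPM (Ueno) in ovary and at 76.9 and 102 TPM in kidney, and these tissues overlapped. Intestine had 37.3 (Taira) and 1.53 TPM (Ueno) in library, and the other 11 tissues reached at most 3.39 TPM. Kidney held oocyte transcripts: 14 of 19 oocyte rows were at 1 TPM or more in both kidney libraries. The sum over the oocyte rows was 6.01% (Taira) and 4.97% (Ueno) of that in ovary. Single rows differed. The row velo1.L stood at 466 and 28.2 TPM in ovary and at 24.7 and 8.12 TPM in kidney. The row zp4.S stood at 877 and 2442 TPM in ovary and at 56.3 and 80.65 TPM in kidney. The ca12.L level in kidney was 42.4% and 266% of that in ovary in the same datasets, and the part of oocytes in it was not tested.

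Homeologs were compared as the log2 ratio of L to S, with 1 TPM added to each copy, which was fitted with limma over 7749 pairs of the genome, and p-values were adjusted over all pairs by the method of Benjamini and Hochberg. The question was whether the copies of a gene were used alike in the organs. The ratio itself did not choose the rows, but it is computed from the levels on which the symbols were selected. The p-values of the family pairs, also those in single organs below, are therefore descriptive and no independent support. For all 4 family pairs it differed between tissues by the F test (adjusted p = 2.64e-11 for car1_predicted, 3.15e-09 for ca13, 7.78e-07 for ca2 and 1.24e-06 for ca4). As 80.5% of all pairs passed this test, passing it did not set the family apart. By the size of F the pairs ranked 37 (car1_predicted), 199 (ca13), 951 (ca2) and 1055 (ca4) among the 7749. Averaged over the 14 tissues, no family pair was called at an adjusted p under 0.05 and a log2 ratio of at least 1, against 23.7% of all pairs. The means were 0.76 for ca2 (SE 0.15, adjusted p = 0.000128), 0.62 for ca4 (SE 0.17, adjusted p = 0.00221), 0.07 for ca13 (SE 0.11, adjusted p = 0.572) and -0.75 for car1_predicted (SE 0.08, adjusted p = 1.08e-07). Of these, 3 had an adjusted p under 0.05 and missed the size threshold, and the same 3 are under 0.05 without adjustment.

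In single organs the ratios were far larger and of both signs. There were 17 combinations of a family pair and a tissue in which a copy had a mean of at least 10 TPM, and in 14 of them the ratio was called. Among all pairs with a copy at that level, 39.5% (brain) to 61.1% (muscle) were called in the 11 tissues concerned. The share was 44.7% in eye, 47.3% in kidney, 49.9% in skin, 51.7% in lung and 53.5% in intestine. It was 53.6% in stomach, 54.7% in testis, 57.3% in liver and 59.1% in pancreas. The shares of all pairs given by tissue below also count pairs without a copy at that level, and are lower. The combinations were spread over only 4 genes, so they are not independent.

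For ca2 the L copy was higher in 5 tissues and the S copy in 1. In brain (137.8 against 27.4 TPM by mean) the log2 ratio was 2.27 (SE 0.56, adjusted p = 0.00241, with 33.1% of all pairs called there), and car1_predicted was also higher from its L copy in brain (3.27, SE 0.30, adjusted p = 8.4e-08). In eye ca2.L exceeded ca2.S by 2.71 (SE 0.56, adjusted p = 0.00057, 32.4% of all pairs called). In muscle the log2 ratio was 3.35 (SE 0.56, adjusted p = 8.27e-05, 28.2% called). In liver it was turned around, with ca2.L at 1.12 and 3.32 TPM against ca2.S at 54.6 and 49.9 TPM (-4.14, SE 0.56, adjusted p = 1.08e-05, 24.7% called). In kidney the copies stood at 258.7 and 235.2 TPM by mean, a log2 ratio of 0.09 with a 95% interval of -1.08 to 1.26 (adjusted p = 0.94), so differences of up to about that size in either direction were not resolved. There 33.8% of all pairs were called. In stomach ca2.L exceeded ca2.S by 2.66 (SE 0.56, adjusted p = 0.000882), and ca13.S exceeded ca13.L there (-2.32, SE 0.43, adjusted p = 0.000273), with 26.6% of all pairs called. The L copy of ca2 was higher in both libraries of brain (2.01 Taira and 2.53 Ueno) and of stomach (3.48 and 1.84). With a library left out, the remaining one is assumed to vary like the other tissues, and then the adjusted p was 0.0609 in brain without the Ueno and 0.0953 in stomach without the Taira library.

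Intestine and lung used opposite copies of ca13. In intestine the log2 ratio was -6.66 (SE 0.43, adjusted p = 7.65e-10), with the S copy higher, and in lung it was 5.85 (SE 0.43, adjusted p = 4.34e-09), with the L copy higher. The same 2 organs used opposite ca4 rows, at -6.63 in intestine (SE 0.62, adjusted p = 9.02e-08) and 4.97 in lung (SE 0.62, adjusted p = 3.07e-06). Without the Taira lung the ca4 ratio in lung was 3.28 (adjusted p = 0.0013). For ca2 the ratio was 5.82 in intestine (SE 0.56, adjusted p = 1.21e-07) and 0.10 in lung (95% interval -1.07 to 1.27, adjusted p = 0.966). Of all pairs 32.3% were called in intestine and 33.7% in lung. In pancreas ca13.S led as in intestine (-3.47, SE 0.43, adjusted p = 9.78e-06, 13.6% called).

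For car1_predicted the S copy took over in testis, at a log2 ratio of -10.56 (SE 0.30, adjusted p = 1.03e-13, 35.3% of all pairs called). In skin its ratio was -0.98 (SE 0.30, adjusted p = 0.0143, 30.3% called), which missed the size threshold of 1. Without the Taira skin it was -1.20 (adjusted p = 0.0468) and passed. The rows ca4.L and ca4.S may not be homeologs of each other. The RefSeq table of the later assembly Xenopus_laevis_v10.1 lists ca4.L as a synonym of both ca4.2.L and ca4.1.S. There ca4.S is a synonym of ca4.1.S. The rows ca13.S, car1_predicted.L and car1_predicted.S had no match there by name. The pairing of the ca13 and of the car1_predicted copies thus rests on the deposited symbols. The authors' counting could also have split reads between near-identical copies, and the libraries carried no strand information, so the ratios hold as far as their read assignment does.

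**Figure D3:**
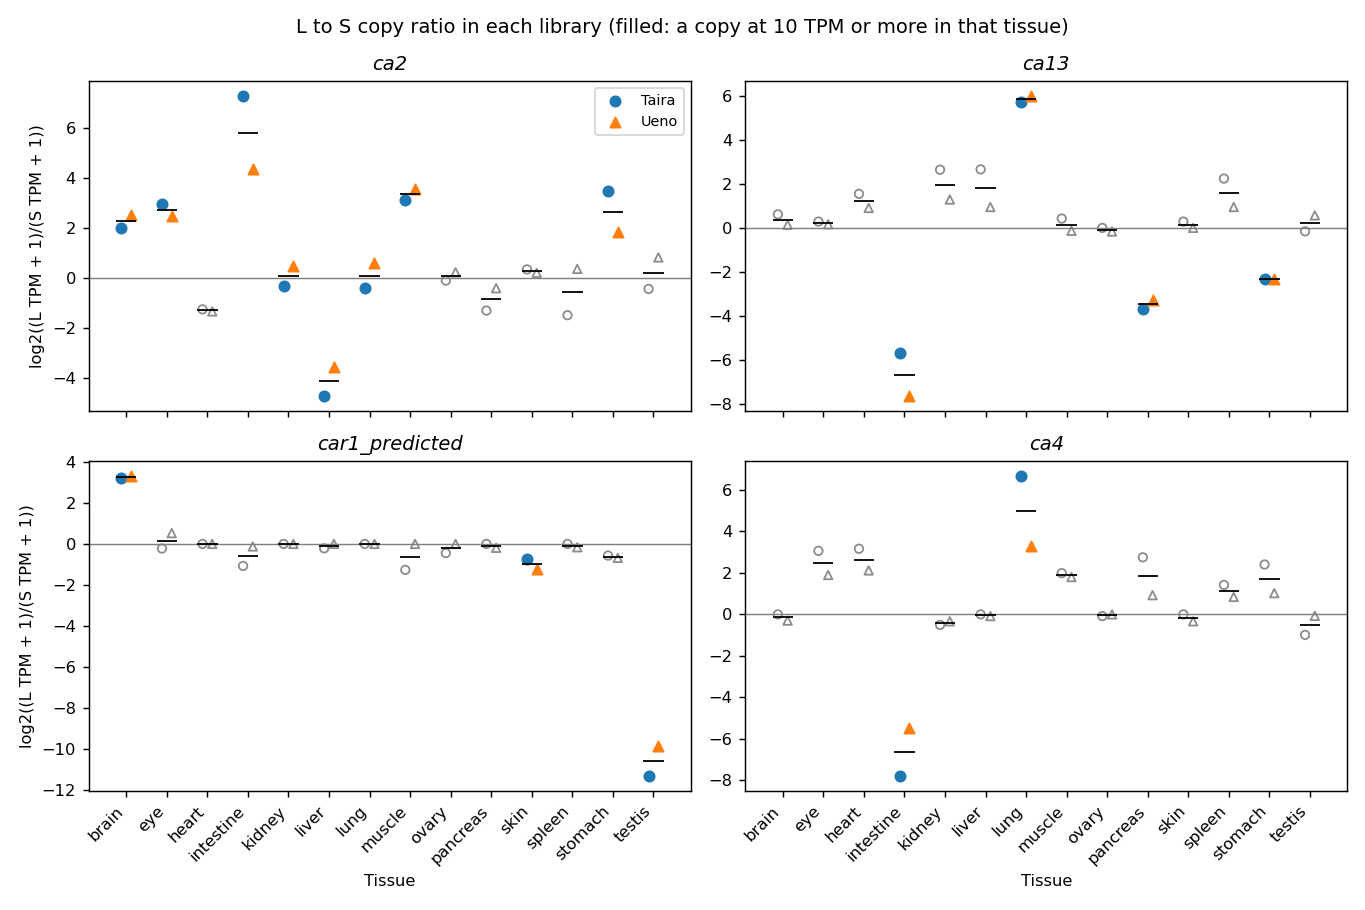
Log2 ratio of L to S TPM, with 1 TPM added to each copy, for ca2, ca13, car1_predicted and ca4 in each library (circles Taira, triangles Ueno, short lines the mean), filled where a copy had a mean of at least 10 TPM in that tissue. The ca13 ratio lies above 5 in lung and below -5 in intestine, and ca2 lies below -3 in liver but above 4 in intestine.

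Levels were often uneven between the datasets. Of 26 combinations of a family row and a tissue with a mean of at least 10 TPM, 20 were higher in the Taira library, and 7 had libraries more than 5 times apart. These 7 were car1_predicted.S in testis and skin, ca2.L in stomach and intestine, ca4.S and ca12.L in intestine, and ca4.L in lung, and all but car1_predicted.S in skin were higher in Taira. The matching shares among all models at that level were not computed, so these counts do not set the family apart. Among all models, 3307 were called lower and 216 higher in Ueno by limma over the 13 tissues from females, as deposited. In intestine the difference was selective among rows: ca2.L was 10.4 times, ca4.S 10.8 times and ca12.L 24.4 times higher in Taira, whereas ca13.S stood at 267 and 266 TPM. Among absorptive cell genes, fabp2.S (3367 and 3560 TPM), slc6a19.L (2204 and 2023 TPM) and slc6a19.S (143 and 137 TPM) were close between the libraries, and fabp2.L (1672 and 2448 TPM) and mep1a.L (1091 and 2149 TPM) were higher in Ueno. Smooth muscle markers were higher in Taira, with a sum over 7 rows of 784 and 161 TPM, of which 4 were at 1 TPM or more in both libraries and 2 at 0 in both. The smooth muscle myosin row myh11.S stood at 536 and 62.2 TPM. The desmin rows des.1.L (55.55 and 36.12 TPM) and des.1.S (55.88 and 50.09 TPM) were closer between the libraries. The part of smooth muscle in the intestine levels was not tested.

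Over the 13 tissues from females, the Ueno minus Taira difference was tested per row on the log2(TPM + 1) scale with tissue as a block, to ask whether the family differed between these 2 frogs in general. By limma 0 of 10 family rows were called, against 10.6% of all 33317 models, and 3 rows had an unadjusted p under 0.05. These 3 were ca4.L (-0.95, SE 0.27, adjusted p = 0.0103, lower in Ueno in 8 tissues, higher in 1), ca13.L (-0.68, SE 0.18, adjusted p = 0.00661, lower in 11 and higher in 1) and ca2.S (-0.52, SE 0.15, adjusted p = 0.0143, lower in 12 and higher in 1), all short of the size threshold of 1. With a pseudocount of 0.1 TPM ca4.L and ca13.L passed it. Without either library of kidney, liver, muscle, ovary or skin ca4.L passed as well, at -1.03 to -1.04. The family's median difference was -0.38, and that of all models was -0.22. Median-of-ratios scaling moved the latter to -0.02 and the share of higher in Ueno among all calls from 6.13% to 47.8%. After this scaling ca4.L was at -0.77, ca13.L at -0.44 and ca2.S at -0.21 (adjusted p = 0.306). The test compares 2 animals and their datasets, which cannot be told apart.

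**Figure D4:**
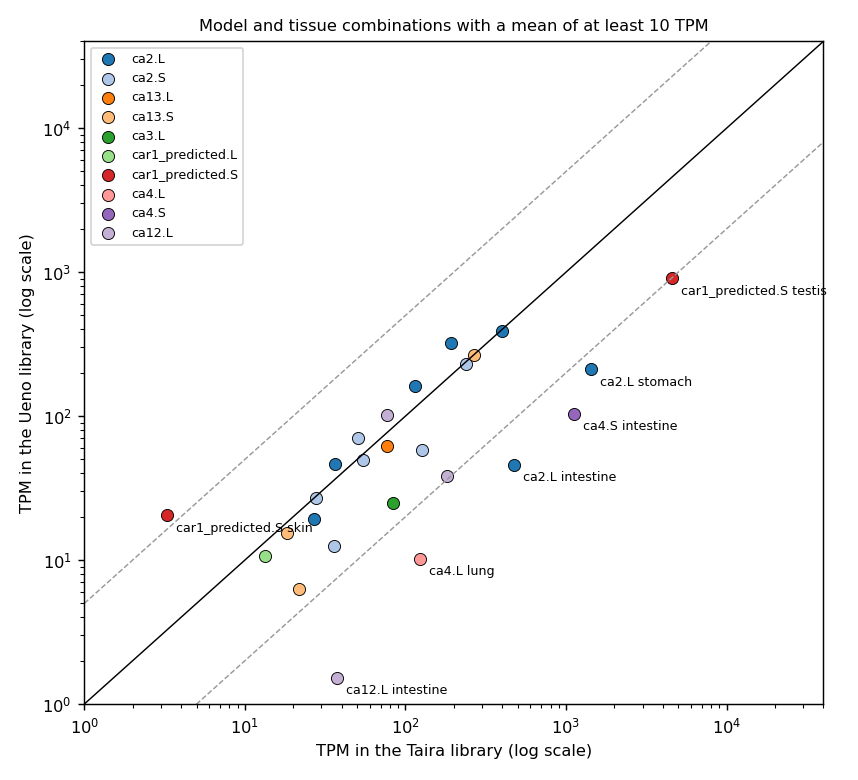
TPM in the Taira (x axis) against the Ueno library (y axis), both on log scales, for the 26 combinations of a family model and a tissue with a mean of at least 10 TPM. The solid line marks equality and the dashed lines a 5-fold difference, and the 7 named combinations lie outside the dashed lines.

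Other carbonic anhydrase symbols had 9 further rows. The row ca5b.L, for a mitochondrial enzyme, stood at 158 and 140.0 TPM in skin and had a median of 13.8 TPM over all libraries. The row ca6.L, for an enzyme secreted in mammalian saliva, stood at 162 and 54.6 TPM in liver and 34.7 and 7.09 TPM in skin. The cytosolic gene ca7 had its highest levels in intestine, at 92.5 and 30.9 TPM for ca7.L and 55.5 and 47.2 TPM for ca7.1. The related proteins without known enzyme activity were low to moderate, with ca10.L at 71.0 and 22.8 TPM in brain, ca8.L at 8.88 and 9.19 TPM in kidney and ca8.S at 12.2 and 5.40 TPM in skin. The rows ca6.S and ca5b.5p were listed at 0 in all 28 libraries.

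Carbonic anhydrases work beside carriers of bicarbonate, protons and ammonia. A list of 31 such genes, of which 16 had a row under their symbol, gave 32 rows, and 30 passed the minimum of 1 TPM in at least 2 libraries. Each of 4 epithelial organs was compared with the mean of the other 13 tissues by limma after adding 1 TPM and taking log2, a scale on which low genes change less, and a row was called at an adjusted p under 0.05 and a difference of at least 1 in size.

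In kidney 8 of 30 rows rose and 1 fell, against 13.9% of all models higher and 1.08% lower, with a list median of 0.10 beside 0.40 for all models. The ammonia channels rose most. The row rhcg.S had a mean of 234 ± 54.0 TPM in kidney and 0.185 TPM in the other 13 tissues (difference 7.71, SE 0.20, adjusted p = 5.21e-15), and rhbg.L (7.06), rhcg.L (5.65) and rhbg.S (5.23) followed. The uncalled rows with the highest level were slc16a1.L, a carrier of lactate and protons, at 48.6 and 48.2 TPM, and aqp1.L, a water channel, at 26.4 and 50.9 TPM. Without the Taira intestine slc16a1.L was called in kidney (adjusted p = 0.0297). The 4 rows of the ionocyte and intercalated cell markers foxi1 and rhcg summed to 554 and 570 TPM in kidney. In skin the sum was 49.5 and 51.3 TPM. In kidney most of the sum came from rhcg.L (235.47 and 176.43 TPM) and rhcg.S (195.8 and 272.18 TPM), both in the transport list. The kidney sum is thus not separate from the transport result. There foxi1.L stood at 78.41 and 75.36 TPM and foxi1.S at 44.49 and 46.26 TPM. In skin most came from foxi1.L (30.1 and 27.97 TPM) and foxi1.S (15.83 and 19.09 TPM). The skin levels of rhcg.L (3.5 and 4.27 TPM) and rhcg.S (0.04 and 0 TPM) were low.

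In stomach 9 rows rose and 5 fell, against 3.88% of all models higher and 10.4% lower, with a list median of -0.44 beside -0.50 for all. The proton pump subunit rows atp4b.S (log2 difference 10.11, SE 0.56, adjusted p = 5.79e-10) and atp4b.L (10.03) rose most, followed by the anion exchangers slc26a9.S (4.99) and slc26a7.L (3.08). Both atp4b rows are also among the tissue markers of stomach and the acid-secreting cell markers above. Their rise is thus not separate from those markers. The sodium and proton exchanger slc9a2 rose in both copies, by 2.39 for slc9a2.L and 2.76 for slc9a2.S. The water channel row aqp1.S was called lower, at 7.29 and 2.72 TPM (-2.29, SE 0.58, adjusted p = 0.00946). Uncalled were aqp1.L at 11.3 and 33.8 TPM, which was called lower without the Taira liver (adjusted p = 0.0458), and slc16a1.L at 21.5 and 3.82 TPM.

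In intestine 9 rows rose and 4 fell, against 10.7% of all models higher and 5.31% lower, with a list median of -0.12 beside -0.13 for all. The chloride and bicarbonate exchanger slc26a3.2.S had a mean of 71.1 ± 35.0 TPM, and 0.459 TPM in the other 13 tissues (difference 5.86, SE 0.38, adjusted p = 1.36e-09). The sodium bicarbonate cotransporter rows slc4a4.S (4.84) and slc4a4.L (3.85) rose as well, as did the Rh glycoprotein row rhag.L (4.39), at 12.5 and 58.7 TPM. The row slc16a1.L was uncalled at 145 (Taira) and 5.50 TPM (Ueno) in intestine, and aqp1.L at 15.3 and 14.05 TPM had a difference of -1.76 (adjusted p = 0.109). The aqp1.L difference passed in the blocked fit (adjusted p = 0.0323), at a pseudocount of 5 TPM (adjusted p = 0.0423) and without the Taira (adjusted p = 0.0117) or the Ueno liver (adjusted p = 0.0355). Without the Taira intestine the slc16a1.L difference turned from 1.10 to -1.15, and without the Ueno intestine it was 3.34 (adjusted p = 0.0155).

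In skin 4 rows rose and 2 fell, against 7.88% of all models higher and 8.07% lower, with a list median of -0.23 beside -0.17 for all. The ammonia channel rhbg.L stood at 398 and 51.0 TPM (log2 difference 5.19, SE 0.49, adjusted p = 3.87e-07) and rhbg.S at 44.6 and 11.6 TPM (2.54, and 1.62 without the Taira skin). The water channel rows aqp1.L (-2.66, adjusted p = 0.0155) and aqp1.S (-2.15, adjusted p = 0.0119) fell. With 1 skin library left the aqp1.L difference stayed near its size but missed the threshold, at -2.81 without the Taira (adjusted p = 0.114) and -2.52 without the Ueno skin (adjusted p = 0.18). The aqp1.S difference shrank to -1.08 without the Ueno skin (adjusted p = 0.473). The row slc16a1.L was uncalled at 27.0 and 22.1 TPM.

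The counts of rows that rose moved with single libraries, most of all in intestine. There fewer rows rose without its Taira and more without its Ueno library. The counts of rows that fell were small and moved with single libraries and settings. In intestine 1 row fell without its Taira and 0 without its Ueno library. In kidney it was 0 without either of its libraries and 2 without the Ueno lung or either testis library. In skin it was 1 without its Taira and 0 without its Ueno library, 4 without the Ueno lung or the Taira testis and 6 without the Ueno testis. In stomach it was 3 without its Taira and 2 without its Ueno library. With the dataset as a block, 2 rows fell in kidney and 5 in skin. Median-of-ratios scaling moved the median of all models from 0.40 to -0.14 in kidney and from -0.50 to -0.18 in stomach, and the part of all calls that were higher from 92.8% to 80.4% in kidney and from 27.1% to 65.5% in stomach, while 8 and 9 rows of the list were called higher as before.

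**Figure D5:**
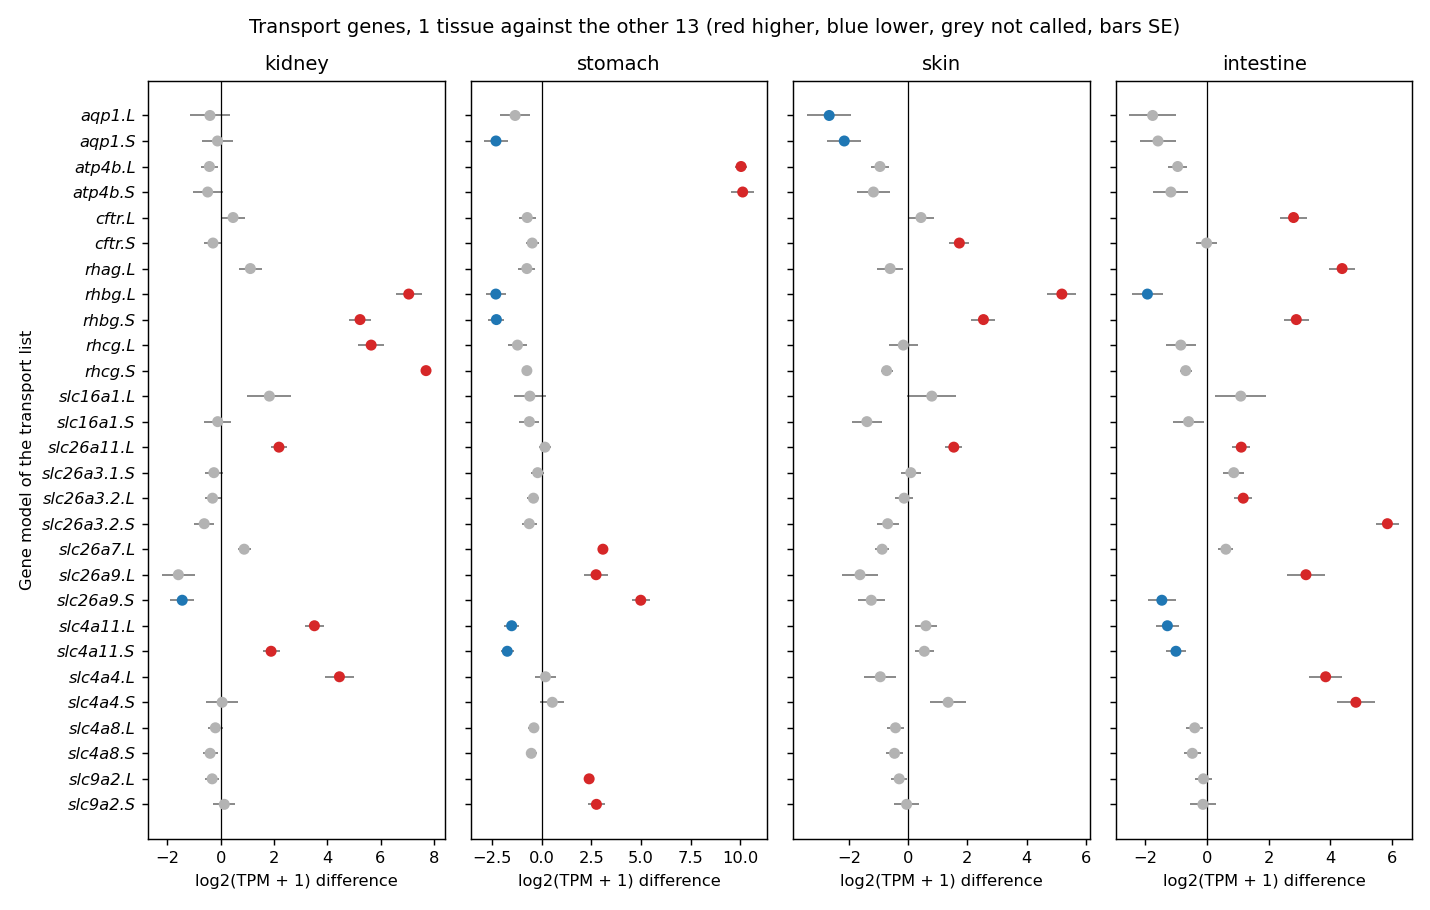
Difference on the log2(TPM + 1) scale between 1 tissue and the mean of the other 13 for 28 of the 30 rows of the transport list (points, with bars for the SE), in kidney, stomach, skin and intestine, with red for rows called higher, blue for lower and grey for uncalled. The rhbg and rhcg rows stand out in kidney, atp4b in stomach, rhbg in skin and slc26a3.2.S and slc4a4 in intestine.

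The models whose pattern was most like that of a family row were sought among 13565 named models by Pearson's r of log2(TPM + 1) over the 28 libraries, for the 6 family rows with a mean of at least 100 TPM in a tissue. The libraries share tissue and donor, so r is a description. For ca4.S they were the homeobox gene cdx1.S (r = 0.9748) and the protease gene tmprss15.S (0.9738). For ca13.S they were the homeobox gene copies pdx1.S (0.962) and pdx1.L (0.960) and rnf186.L (0.937). For car1_predicted.S they were camta2-like.2.L (0.952), fancd2os.L (0.952) and the cohesin gene rec8.L (0.950). The nearest models were less alike for ca12.L (fmo1.L at 0.872, upk3a.L at 0.869 and slc5a9.L at 0.860), for ca2.L (syt8.L at 0.870, vopp1.L at 0.861 and tnc-like.L at 0.831) and for ca2.S (igfbp2.L at 0.729, tymp.L at 0.713 and igfbp2.S at 0.709).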

How the data were processed

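RNA was taken from minced whole tissue and sequenced after poly-A capture without strand information, per the labels' protocols. The authors deposited 1 table of TPM values. BWA 0.7.10 and RSEM 1.2.19 are the tools in the submitters' processing notes, with cDNA models as the reference per the labels. Depth cannot be read from TPM, and counting error was not estimated. Replicate 1 is the Taira and replicate 2 the Ueno library, and all columns were matched by name. Members and lists were chosen with earlier results of these data known.

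Models with at least 1 TPM in at least 2 libraries (33317) were fitted on the log2(TPM + 1) scale with limma 3.58.1 (R 4.3.3) and a separate mean for each tissue, over all 28 libraries and all models, with moderated variances and a mean trend. All p-values were adjusted by Benjamini-Hochberg over all models or pairs. Pairs were symbols found once with L and once with S (8017, of which 7749 had a copy past the minimum). P-values rest on 2 animals per tissue, and the testis donors were other animals than the female donors. Same-numbered samples of the female tissues come from 1 frog, per the series design, and their Ueno minus Taira differences went together in 74 of 78 pairs of tissues (r across genes over 0.1, median 0.425, lowest -0.0138). The fit as reported had no block. The named genes were the 4 called transport rows with the largest difference and 2 uncalled rows with the highest level per tissue, and the 3 most alike models per family row. Some genes that this rule names are not reported here. The fits were tested on simulated data. Alternatives were pseudocounts of 0.1 and 5 TPM, no filter, a minimum of 5 TPM, median-of-ratios scaling and no variance trend. Others were the dataset as a block, both copies past the minimum, the gonads left out, testis added and each library left out. RefSeq names were matched by symbol for 5 family rows and by synonym for 2. The other 3, ca13.S, car1_predicted.L and car1_predicted.S, had no match.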

Additional observations from a re-analysis of the deposited data

Results flagged for a closer look

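The L to S ratio of all 4 family pairs differed between tissues by the F test in limma, which made each a difference between groups under the same contrast. The adjusted p was 2.64e-11 for car1_predicted, 3.15e-09 for ca13, 7.78e-07 for ca2 and 1.24e-06 for ca4. The pairing of the ca4 rows as homeologs is uncertain. The rows ca13.S, car1_predicted.L and car1_predicted.S had no match by name in the later assembly. Of all 7749 pairs 80.5% passed the same test. The symbols were selected on the levels behind the ratio, so these p-values are descriptive.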

How the results depend on the processing

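The F test called all 4 family pairs under every alternative run, and 13 to 15 combinations of pair and tissue were called when single libraries were left out, with 14 under the other settings. A pseudocount of 0.1 TPM gave 2 family pairs with a called mean ratio, 2 family rows called between the frogs, and 2 transport rows lower in kidney and 5 in skin. A pseudocount of 5 TPM gave 0 lower in kidney and 3 in stomach, a minimum of 5 TPM gave 4 lower in skin, and leaving out the gonads gave 4 lower in skin. Scaling gave 2 lower in kidney, 3 in stomach and 6 in skin. With the replicate block, 2 were lower in kidney and 5 in skin, the ratio fits called the same numbers of pairs (4 by F, 0 by the mean and 14 combinations) and aqp1.L passed in intestine. The cause was not tested. With each library left out in turn, the family rows called between the frogs ranged from 0 to 1, and the transport rows that fell from 0 to 2 in kidney, 2 to 6 in stomach, 0 to 6 in skin and 0 to 6 in intestine. Signs turned only for uncalled values: the mean ca13 ratio was -0.14 at a pseudocount of 5 TPM and -0.0904 after scaling, the frog difference of ca13.S was 0.0663 at a pseudocount of 0.1 TPM and 0.0708 after scaling, and that of car1_predicted.S was 0.0469 at 5 TPM. Over the left-out libraries the frog differences ranged from -0.15 to 0.0572 for ca13.S and from -0.0383 to 0.15 for car1_predicted.L, the ca2 ratio from -0.30 to 0.48 in kidney and from -0.39 to 0.59 in lung, and the differences of slc16a1.L from -1.15 to 3.34 in intestine and -1.70 to 0.52 in stomach, and of aqp1.L from -0.86 to 0.0623 in kidney. The slc16a1.L value of 3.34, without the Ueno intestine, passed. The unknown read depth limits what can be said of values near 0.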

Other observations

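Several family genes are neighbours. In the RefSeq table of the assembly Xenopus_laevis_v10.1, ca13.L, ca1.L, ca3.L and ca2.L follow each other directly on the L subgenome. No row here carried the symbol ca1.L, but 20523 of the 45831 models were unnamed. The others of these genes had different leading tissues. The row ca13.L was highest in lung, ca3.L in muscle and ca2.L in stomach by mean, where the Ueno stomach lay below the Ueno eye and kidney. Over the 28 libraries the Pearson r of log2(TPM + 1) was 0.64 between ca2.L and ca2.S, 0.16 between the car1_predicted copies, 0.07 between ca4.L and ca4.S and 0.03 between ca13.L and ca13.S. The highest r within the family was 0.74, between ca13.S and ca4.S, which share intestine as leading tissue. Libraries share tissues and donors, so these r values describe the table and carry no test.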
